A study of Mus musculus with 4 samples.

Results

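The genes described here build and fill the lysosome of mouse embryonic fibroblasts (MEFs): the subunits of the vacuolar proton pump (V-ATPase), the cathepsin proteases and the LAMP membrane proteins. They were taken by symbol: every symbol starting with Atp6v0 or Atp6v1, every Cts symbol with a single further letter, and Lamp1, Lamp2 and Lamp3. The rule gave 43 genes of the 36846 symbols in the table: 13 subunits of the cytosolic V1 sector of the pump, 9 subunits of its membrane V0 sector, 18 cathepsins and 3 LAMP genes. Atp6v0c-ps2, a pseudogene copy of Atp6v0c, was kept beside them as a check on the copy only and is not counted among the 43.

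The MEFs were either wild type (WT) or lacked Dnmt3l (Dnmt3l-KO), and each genotype was sequenced as 2 RNA libraries. Dnmt3l encodes a catalytically inactive partner of the de novo DNA methyltransferases, and the study set out to find genes behind the improvement of cloned embryos made from Dnmt3l-KO cells. Both genotypes were C57BL/6, untreated, at passage 4, and came from embryos of day 13.5 to 14.5 whose parents were heterozygous for Dnmt3l. RNA was depleted of ribosomal RNA and copied with random primers. Whether same-genotype libraries stem from different embryos is not given in the labels, so a p-value here measures library spread that may be purely technical.

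Estimated counts per library summed to between 40681328 and 51465395. Counts of Dnmt3l itself were 6 and 1 for WT against 0 and 0 for Dnmt3l-KO, too few in WT for a check of the genotype. All 14 fibroblast markers examined, among them Col1a1, Vim and Fn1, had a mean of at least 1 FPKM (fragments scaled to transcript length and sequencing depth). For Lum this rested on the second Dnmt3l-KO library, with 0.492 and 1.15 FPKM in WT and 0.188 and 4.27 FPKM in Dnmt3l-KO. Of 15 macrophage markers in the table, 12 had a mean under 1 FPKM, Aif1 had no count, and Ptprc stayed at or under 0.0582 FPKM. The other 3, Lyz2, Cd68 and Cd14, had a mean of at least 1 FPKM. Lyz2 was the highest of the macrophage markers, with 4.065 and 2.629 FPKM in WT and 4.338 and 3.993 FPKM in Dnmt3l-KO. All 5 osteoclast markers had a mean under 1 FPKM, and Dcstamp had no count.

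The V-ATPase uses the energy of ATP hydrolysis in its V1 sector to drive protons through the V0 sector into lysosomes, endosomes and secretory vesicles. The acid interior lets cathepsins, most of them cysteine proteases and some aspartic or serine proteases, mature and digest proteins. LAMP1 and LAMP2 are heavily glycosylated proteins that line the lysosomal membrane. The transcription factor TFEB and its relatives are known to act on many lysosomal genes through a palindromic element around the E-box CACGTG.

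Because that element links the promoters of many lysosomal genes, its letters were searched in promoter windows of 300 bases (250 before and 50 after the RefSeq start site, build GRCm38.p6), which were at hand for 33 of the 43 genes. The search used 3 nested motifs, each reading the same on both strands: CACGTG, TCACGTGA, which contains the first, and a longer form, which adds a G before and a C after the second. Matches were counted per gene. CACGTG was present in 9 of the 20 genes (45%) with a mean of at least 1 FPKM, and in 0 of the 13 genes under 1 FPKM. Among all genes it was present in 8.09% of 27025, and among all genes with a mean of at least 1 FPKM in 12.3% of 8341. The share among all genes under 1 FPKM was not counted. TCACGTGA was present in 5 of the 20 (25.0%), against 2.47% of all genes with a mean of at least 1 FPKM. The longer form was present in 0 of the 20, against 0.947%. A match describes the letters of a window only. The 5 genes with TCACGTGA were Atp6v0d1, Atp6v0e, Atp6v1a, Ctsa and Ctsd. Their windows, and one of the 4 CACGTG sites of Lamp1, are shown 5′ to 3′ on the strand of the gene, with the motif in capitals.
Atp6v0d1, chr8:105566050-105566079, minus strand: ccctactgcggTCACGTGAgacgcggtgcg
Atp6v0e, chr17:26676387-26676416, plus strand: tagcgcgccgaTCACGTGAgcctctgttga
Atp6v1a, chr16:44139373-44139402, minus strand: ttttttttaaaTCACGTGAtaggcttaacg
Ctsa, chr2:164833749-164833778, plus strand: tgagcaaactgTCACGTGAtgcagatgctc
Ctsa, chr2:164833766-164833795, plus strand: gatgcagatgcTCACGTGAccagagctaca
Ctsd, chr7:142387908-142387937, minus strand: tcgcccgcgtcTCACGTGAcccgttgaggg
Lamp1, chr8:13159088-13159117, plus strand: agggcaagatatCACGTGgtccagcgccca

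The other sequence the results turn on is that of Atp6v0c and its copy. Atp6v0c encodes the c subunit, the small membrane protein that forms the proton-carrying ring of the V0 sector, and lies at chr17:24163865-24169678. Atp6v0c-ps2 is a transcribed pseudogene at chr6:37805975-37807107 (both GRCm38.p6). The 465 bases that GENCODE annotates for the copy matched the coding sequence of Atp6v0c (468 bases with its stop codon) at 99.78%, and differed at 1 position, T111C (the Atp6v0c base first, position counted from 1 at the first base of the coding sequence, then the base of the copy). Positions 81 to 141 of both follow, with the differing base in capitals.
Atp6v0c: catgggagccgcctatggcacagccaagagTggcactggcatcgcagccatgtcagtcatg
Atp6v0c-ps2: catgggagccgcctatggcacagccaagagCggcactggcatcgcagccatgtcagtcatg

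Fibroblasts of both genotypes expressed at least 1 gene for each V1 and V0 subunit listed, a broad set of cathepsins and both main LAMP genes. Of the 43 genes, 27 had a mean over the 4 libraries of at least 1 FPKM, namely 15 of 22 pump subunits, 10 of 18 cathepsins, Lamp1 and Lamp2. Another 9 had no count in any library: Atp6v1c2, Atp6v1e2, Atp6v1g3, Ctse, Ctsg, Ctsj, Ctsm, Ctsq and Ctsr. Of these only Atp6v1c2 had a mean FPKM above 0, at 0.0150. A count of 0 allows up to 3 counts per library, or 0.0601 to 0.0719 CPM (counts scaled to a common library size), counting error only. Several of these 9 are known from other tissues, such as Ctsg from neutrophils and Ctsj, Ctsm, Ctsq and Ctsr from placenta. Atp6v1b1 had 2, 0, 2 and 2 counts and Lamp3 had 1, 0, 1 and 0, in the order WT 1, WT 2, Dnmt3l-KO 1 and Dnmt3l-KO 2 used throughout, and both were too low to test.

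Ctsd, the main aspartic protease of lysosomes, had the highest level of the set, with 602 and 673 FPKM in WT and 695 and 619 FPKM in Dnmt3l-KO. Lamp1 followed with 424 and 429 FPKM in WT and 490 and 413 FPKM in Dnmt3l-KO. Ctsl, a cysteine endopeptidase, was the third, with 268 and 237 FPKM in WT and 260 and 183 FPKM in Dnmt3l-KO. The ranges of these 3 genes over the 4 libraries did not overlap, so their order held in every library. Below them the order was not separated: from Ctsl, at a mean of 237 FPKM, down to Atp6v0d1, at 92.7 FPKM, each gene's range overlapped that of the next. Within that stretch lay Atp6v1g1 (176 FPKM), Atp6v0c (148 FPKM), Lamp2 (127 FPKM), Atp6v0b (122 FPKM), Ctsb (121 FPKM) and Atp6v1f (113 FPKM).

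Where the pump has several genes for the same subunit, 1 paralogue carried nearly all of the FPKM, except for the a subunit. Atp6v0d1, Atp6v1b2, Atp6v1c1, Atp6v1e1 and Atp6v1g1 each held at least 99.8% of their family's FPKM in every library. Atp6v0e held 95.6 to 96.6%, and Atp6v0e2 the remaining 3.4 to 4.43%. The a subunit steers the pump to different membranes, and it was shared among 3 genes: Atp6v0a1 held 34.2 to 38.1%, Atp6v0a2 32.1 to 33.3%, and Tcirg1, which encodes a3 and falls outside the symbol rule, 28.7 to 33.5%. Atp6v0a4, known from kidney, held 0.163 to 0.282%. The ranges of Atp6v0a1 and Atp6v0a2 did not overlap in these shares.

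The cathepsins spread over more than 3 orders of magnitude. After Ctsd and Ctsl came Ctsb (mean 121 FPKM), a cysteine protease that can trim from the carboxyl end, Ctsz (94.97 FPKM), a carboxypeptidase, and Ctsa (62.1 FPKM), a serine carboxypeptidase that also protects lysosomal sialidase and galactosidase. Ctsh (20.2 FPKM), an aminopeptidase, and Ctsk (17.0 FPKM), a collagen-degrading protease best known from osteoclasts, had overlapping ranges. Ctsc, which activates the serine proteases of immune cells, had a mean of 10.4 FPKM, and Ctsf one of 7.32 FPKM. Ctso stood at 1.93 FPKM. Ctsw and Ctss, both known from immune cells, stood at 0.510 and 0.422 FPKM.

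No gene of the set differed between the genotypes after adjustment for all genes tested. In edgeR's quasi-likelihood test with Benjamini-Hochberg adjustment over 14760 symbols, 0 of the 32 tested genes of the set passed an adjusted p of 0.05, where 0.0203% of all symbols tested passed, and each of the 32 had an adjusted p of 0.999. DESeq2's Wald test also called 0 of the 32, where it called 0.18% of all symbols with an adjusted p. At an unadjusted p under 0.05 there was 1 gene, Atp6v0c, where 4.15% of all symbols tested had such a p. With 2 libraries against 2, an exact two-sided permutation test of a single gene cannot go below p = 0.3333. In 6 of the 32 the libraries of the genotypes did not overlap, where 32.8% of all symbols tested did not overlap, so the share in the set was not above the background. Both Dnmt3l-KO libraries were higher in Atp6v0a2 and Ctsa (16.2% of all symbols) and lower in Atp6v0c, Atp6v0a4, Ctsb and Ctso (16.5% of all symbols).

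The median log2 fold change (Dnmt3l-KO against WT) was -0.04 for the 18 pump subunits tested, with 7 positive and 11 negative. It was -0.11 for the 12 cathepsins, with 3 positive and 9 negative, and 0.01 for all symbols tested. For V1 subunits alone it was -0.09 and for V0 subunits 0.03. The pump median averages Dnmt3l-KO libraries that lay apart: against the WT mean, the median log2 CPM of the subunits was 0.11 in the first and -0.25 in the second. Without the first Dnmt3l-KO library the pump median was -0.25, and without the second it was 0.10. A typical gene of the set had a standard error (median 0.14) larger than its own absolute change (median 0.10).

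**Figure D1:**
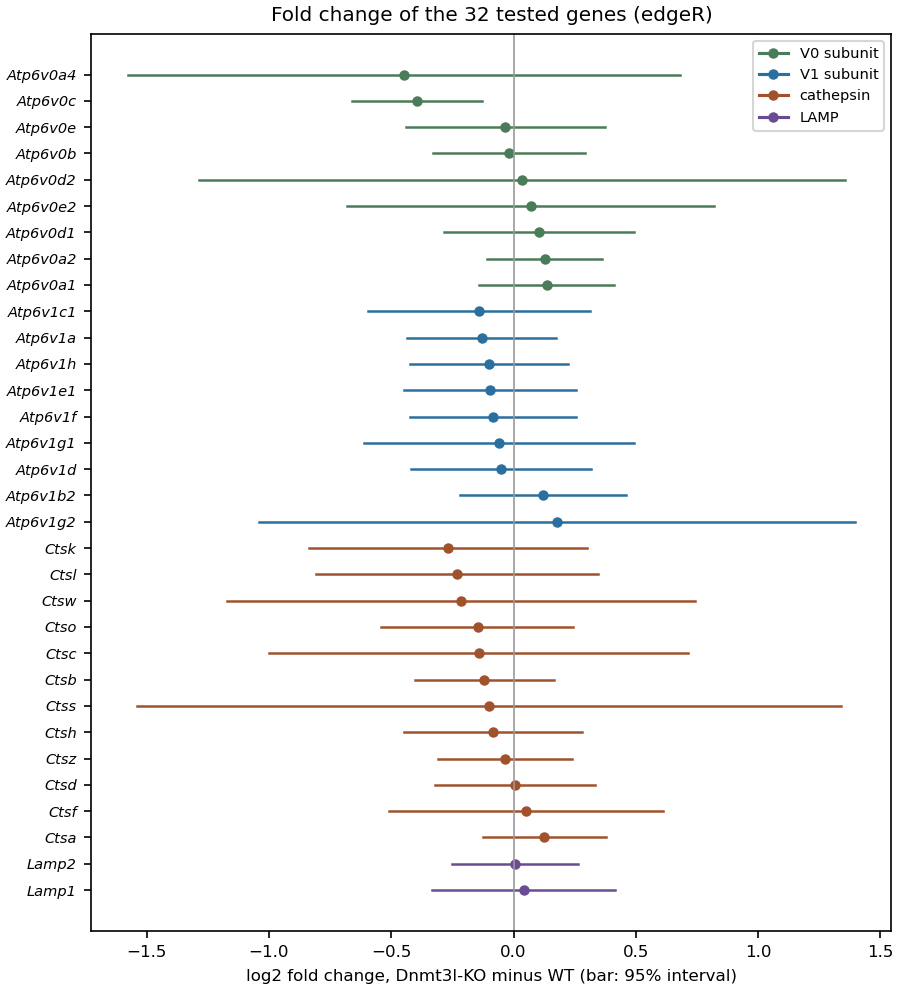
Log2 fold change (Dnmt3l-KO against WT) with its 95% interval from edgeR for each tested gene of the set. The interval of Atp6v0c, from -0.66 to -0.13, lies wholly below 0.

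The estimated counts of Atp6v0c were 10547 and 8450 for WT, and 8312 and 6586 for Dnmt3l-KO. On the CPM scale these were 224 and 203 in WT (213 ± 15.2, SD, n = 2) and 167 and 158 in Dnmt3l-KO (162 ± 6.38, SD, n = 2). Both Dnmt3l-KO libraries lay below both WT libraries, and the mean was 24.0% lower. The log2 fold change was -0.40 ± 0.10 (SE), with an unadjusted p of 0.0120 and an adjusted p of 0.999 in edgeR.

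Its copy had the opposite order. The 2 WT libraries held 14 and 3 estimated counts of Atp6v0c-ps2 (0.297 and 0.0719 CPM), whereas the Dnmt3l-KO libraries held 4063 and 2300 (81.4 and 55.0 CPM). Both Dnmt3l-KO libraries were far above both WT libraries, and the pooled counts gave a ratio of 363 (exact 95% interval from 226 to 623, counting error only). In edgeR its log2 fold change was 8.47 ± 0.48 (SE), with an adjusted p of 0.0508 that missed the threshold, and DESeq2's Wald test gave an adjusted p of 1.5e-19. In the authors' deposited table the copy's log2 fold change was 5.85 with a standard error of 0.305 and an adjusted p of 1.9e-78.

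The copy's share of the summed counts of the pair was 0.133% (Wilson 95% interval 0.079 to 0.222%) and 0.0355% (0.0121 to 0.104%) for WT. It was 32.8% (32 to 33.7%) and 25.9% (25 to 26.8%) for Dnmt3l-KO. With both genes summed, the pair had 224 and 203 CPM in WT and 248 and 213 CPM in Dnmt3l-KO, and the genotypes overlapped. The log2 fold change of the sum was 0.11 ± 0.12 (SE), with a 95% interval from -0.21 to 0.43 and an adjusted p of 0.999 in edgeR. From WT to Dnmt3l-KO the mean of Atp6v0c was lower by 51.2 CPM and that of the copy higher by 68.0 CPM. The counts are estimates, and how reads were divided between the pair was not tested. The difference at 1 of 465 positions covers only the bases that GENCODE annotates for the copy. The full RefSeq transcripts that were counted were not compared, so the level of either gene alone is uncertain.

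**Figure D2:**
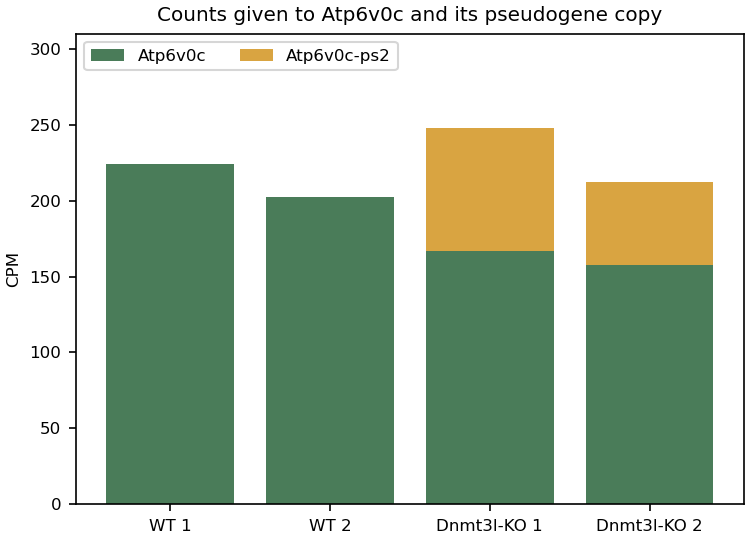
CPM of Atp6v0c and of Atp6v0c-ps2 stacked for each library. The copy is not visible in the WT bars and makes up 32.8% and 25.9% of the Dnmt3l-KO bars, whose full heights (248 and 213 CPM) overlap those of WT (224 and 203 CPM).

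The nearest gene of the table to the copy is Trim24, 63704 bases away, with 2156 and 1956 counts for WT against 2594 and 1879 for Dnmt3l-KO. Its libraries overlapped between the genotypes in these counts. Other genes of the set also have close matches in GENCODE under other gene names that were not analysed here. Atp6v1g1 matched the processed pseudogene Gm13453 at 99.44% over 357 bases, Atp6v1f matched AC169506.3 at 97.5% over 360 bases, and Ctsl matched Gm49230 at 100% over 395 bases. Ctsd, the most abundant gene of the set, matched the protein-coding gene model Gm49369 at 100% over 671 bases, and Atp6v0c matched a further processed pseudogene, Atp6v0c-ps1, at 97.2% over 465 bases. Genomic positions of the matches were not compared, so whether Gm49369 is a separate copy or a model overlapping Ctsd was not tested. The counts of these 5 genes may hold reads of those matches that are separate copies. Ctsm and Lamp3, with few or no counts, had matches too, and Atp6v1g1 and Ctsl had further ones.

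Among the other V0 subunits, Atp6v0a2 had 82.3 and 85.7 CPM in WT and 95.2 and 88.4 CPM in Dnmt3l-KO. Both Dnmt3l-KO libraries were higher (0.13 ± 0.09 SE on the log2 scale, unadjusted p = 0.221, adjusted p = 0.999 in edgeR). Its paralogue Atp6v0a1 had 65.7 and 74.5 CPM in WT and 80.3 and 73.8 CPM in Dnmt3l-KO, which overlapped (0.14 ± 0.11 on the log2 scale). Atp6v0b, which encodes another proteolipid of the membrane ring, had 135 and 136 CPM in WT and 146 and 121 CPM in Dnmt3l-KO. Its Dnmt3l-KO libraries lay on either side of both WT libraries. Atp6v0a4, lower in both Dnmt3l-KO libraries, rested on 19, 19, 18 and 11 counts.

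In the V1 sector, Atp6v1a, the subunit that hydrolyses ATP, had 285 and 266 CPM in WT and 271 and 233 CPM in Dnmt3l-KO. Its log2 fold change was -0.13 ± 0.12 (SE), and the genotypes overlapped. Atp6v1b2, the non-catalytic partner of the A subunit, had 90.2 and 84.5 CPM in WT and 105 and 84.7 CPM in Dnmt3l-KO (0.12 ± 0.13 on the log2 scale). Atp6v1c1, which links the V1 and V0 sectors, had 90.1 and 80.9 CPM in WT and 89.9 and 65.1 CPM in Dnmt3l-KO (-0.14 ± 0.18 on the log2 scale). In all 3 the first Dnmt3l-KO library was above the second.

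The same order was wider in the stalk subunit Atp6v1g1, with 223 and 215 CPM in WT and 254 and 167 CPM in Dnmt3l-KO. Its Dnmt3l-KO libraries lay above and below both WT libraries, and its log2 fold change was -0.06 ± 0.21 (SE). Atp6v1f, a subunit of the central stalk, had 83.2 and 78.8 CPM in WT and 84.7 and 68.0 CPM in Dnmt3l-KO, again on either side of WT (-0.09 ± 0.13 on the log2 scale).

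This split between the Dnmt3l-KO libraries ran through the pump. The first Dnmt3l-KO library was above the second in 17 of the 18 subunits tested (94.4%), with Atp6v0d2, at 10 and 14 counts, the exception, against 49.3% of all symbols tested. In 9 of the 18 (50%, against 13.6% of all symbols) the first lay above and the second below both WT libraries. The median log2 difference between the Dnmt3l-KO libraries was 0.32 for the subunits and -0.01 for all symbols. Between the WT libraries it was 0.07 for the subunits, and the first WT library was above the second in 11 of 18. Without any scaling beyond the library total, the first Dnmt3l-KO library was above the second in 16 of 18 (88.9%, against 38.6% of all symbols). In 6 of 18 (33.3%, against 9.18% of all symbols) it lay above, and the second below, both WT libraries. Of the 12 assembly and accessory genes of the pump examined, such as Vma21 and Wdr7, 11 also had more CPM in the first Dnmt3l-KO library. So did 7 of 12 cathepsins (58.3%), 20 of 34 lysosomal hydrolases, 20 of 27 membrane and sorting genes, and 11 of 21 genes of the TFEB family and nutrient sensing.

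**Figure D3:**
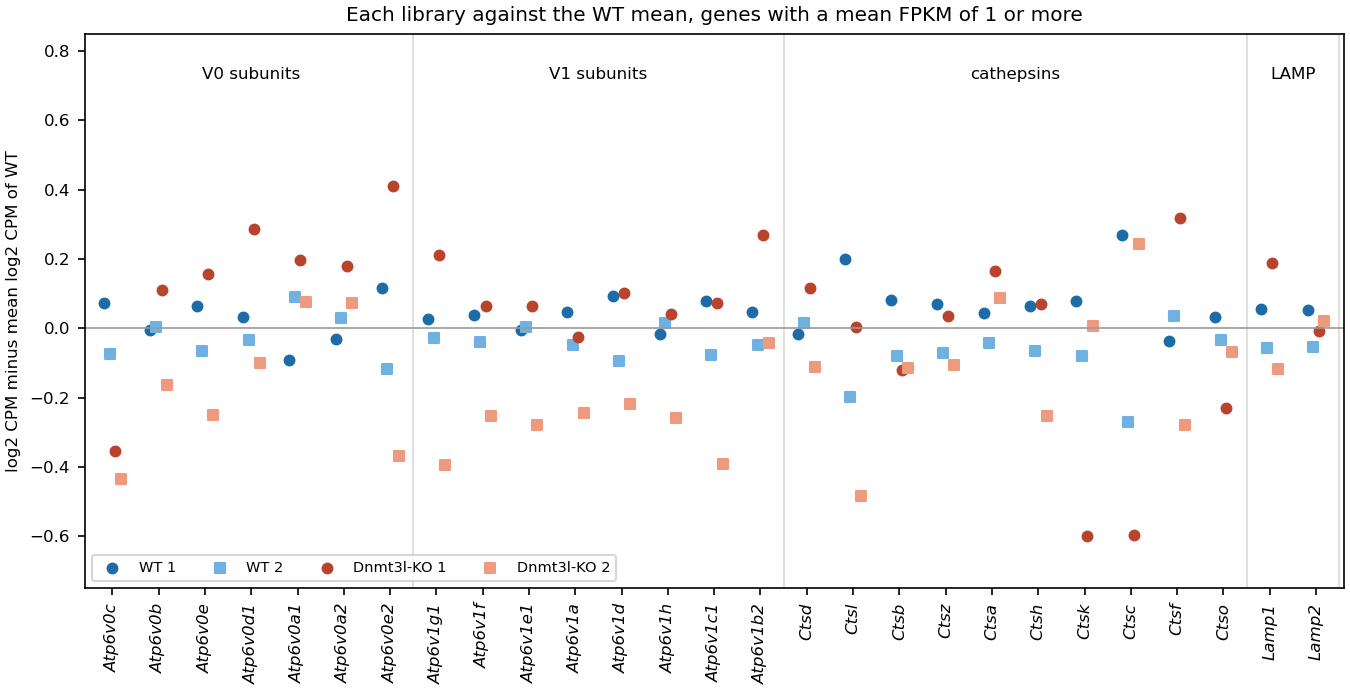
Log2 CPM of each pump subunit, cathepsin and LAMP gene with a mean of at least 1 FPKM, in each library relative to the WT mean. Genes under 1 FPKM, such as Atp6v0d2, are not drawn. Pump subunits lie mostly above 0 in the first Dnmt3l-KO library and below 0 in the second.

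The Dnmt3l-KO libraries also differed in fibroblast markers, in the opposite order: the first was below the second in 13 of 14. Col3a1, a fibrillar collagen, had 72.7 and 62.2 FPKM in WT and 31.0 and 152 FPKM in Dnmt3l-KO. Summed over the 14 markers, the libraries had 20310 and 17000 CPM in WT and 18740 and 24380 CPM in Dnmt3l-KO. The part of this split in the pump values was not tested, and in bulk RNA fewer cells of a type cannot be told apart from less RNA per cell.

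Among the cathepsins, Ctsa was higher in both Dnmt3l-KO libraries, with 223 and 210 CPM in WT and 242 and 230 CPM in Dnmt3l-KO. Its log2 fold change was 0.13 ± 0.10 (SE), with an unadjusted p of 0.256 (edgeR, adjusted p = 0.999). Ctsb was lower in both, with 695 and 622 CPM in WT and 604 and 608 CPM in Dnmt3l-KO (-0.12 ± 0.11 on the log2 scale). Neither difference passed the test. Ctsd, the most abundant member, had 1388 and 1417 CPM in WT and 1519 and 1297 CPM in Dnmt3l-KO, and its 95% interval on the log2 scale ran from -0.32 to 0.33.

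Ctsl had 579 and 439 CPM in WT and 506 and 361 CPM in Dnmt3l-KO, and its libraries spread as widely within a genotype as between them (-0.23 ± 0.22 on the log2 scale). Ctsk had 34.0 and 30.5 CPM in WT and 21.2 and 32.4 CPM in Dnmt3l-KO. Here only the first Dnmt3l-KO library was low, and the genotypes overlapped (-0.27 ± 0.22 on the log2 scale). Ctsc had 37.2 and 25.6 CPM in WT and 20.4 and 36.5 CPM in Dnmt3l-KO, so that each genotype had a library with less of it.

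Ctss, Ctsk and Ctsc are also expressed by macrophages or osteoclasts. Summed over the macrophage markers, the libraries had 14.7 and 11.5 CPM in WT and 16.3 and 15.1 CPM in Dnmt3l-KO, and over the osteoclast markers 1.87 and 1.75 CPM in WT and 1.04 and 2.18 CPM in Dnmt3l-KO. Trophoblast markers, mostly Prl2c2, summed to 0.871 and 1.97 CPM in WT and 4.17 and 0.765 CPM in Dnmt3l-KO. Tpbpa, Elf5 and the placental cathepsins had no count in any library. Endothelial markers, mostly Kdr, summed to 8.60 and 10.1 CPM in WT and 20.2 and 6.53 CPM in Dnmt3l-KO. Epithelial markers, mostly Krt19, summed to 44.6 and 53.6 CPM in WT and 53.9 and 41.6 CPM in Dnmt3l-KO. Whether such cells were present, and their part in the cathepsin values, was not tested.

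Neither tested LAMP gene passed the test. Lamp1 had 1118 and 1033 CPM in WT and 1224 and 990 CPM in Dnmt3l-KO, on either side of both WT libraries, with a 95% interval from -0.33 to 0.42 on the log2 scale. Lamp2 had 414 and 385 CPM in WT and 397 and 405 CPM in Dnmt3l-KO, with both Dnmt3l-KO libraries inside the WT range, and its interval ran from -0.25 to 0.26. These intervals bound the estimate of each gene and are not limits of detection. With 2 libraries per genotype, larger differences can also miss the threshold. Atp6v0c, at a log2 fold change of -0.40, had an adjusted p of 0.999 in edgeR.

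The table lists RefSeq transcripts, 106 of them for the 43 genes, which allowed a view below the gene. Of 58 transcripts of the set tested in edgeR, 0 passed an adjusted p of 0.05, where 0.00252% of all transcripts tested passed. At an unadjusted p under 0.05 there were 3, where 4.12% of all transcripts had such a p. These were the transcript of Atp6v0c and the predicted variants X1 of Atp6v1a and of Atp6v1h. The X1 variant of Atp6v1h, a subunit of the V1 sector that regulates its ATPase, held 19.6 and 17.6% of the gene's counts for WT and 13.2 and 10.7% in Dnmt3l-KO. Its log2 fold change was -0.72 ± 0.27 (SE), with an unadjusted p of 0.0496 and an adjusted p of 0.9999 in edgeR. The X1 variant of Atp6v1a held 4.71 and 5.98% of the gene's counts for WT and 3.65 and 3.29% in Dnmt3l-KO (-0.74 ± 0.24 on the log2 scale, unadjusted p = 0.0311, adjusted p = 0.9999 in edgeR). Both X1 shares were lower in both Dnmt3l-KO libraries. These variants were picked for a small p, which favours such an order. How often the shares of other transcripts had that order was not counted. Of the 46 transcripts of the set with an adjusted p in the authors' deposited table, 0 were under 0.05, against 0.441% of all transcripts, and the same 3 transcripts had an unadjusted p under 0.05. For Atp6v0c the authors' deposited table gave an unadjusted p of 0.0326 and an adjusted p of 0.791.

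The transcript shares of Ctsl varied widely between libraries and did not follow the genotype. Its curated transcript held 68.4 and 32.4% of the gene's counts for WT and 40.1 and 69.7% in Dnmt3l-KO. The predicted variant X1 held 29.6 and 61.9% in WT and 55.8 and 28.0% in Dnmt3l-KO. Each genotype thus had a library led by each of these transcripts. Lamp2, whose variants differ in the tail that faces the cytosol, varied less: variant 1 held 26.1 and 22.6% in WT and 27.4 and 24.0% in Dnmt3l-KO, and variant 2 held 73.4 and 77.2% in WT and 72.2 and 75.7% in Dnmt3l-KO.

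**Figure D4:**
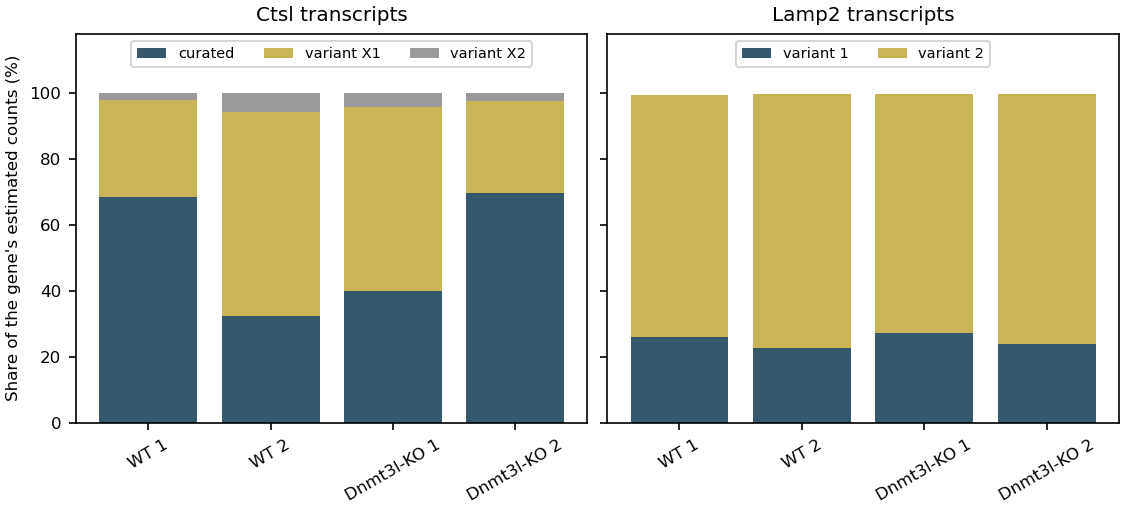
Share of the gene's estimated counts (%) held by each main transcript of Ctsl and Lamp2, stacked for each library. The curated Ctsl transcript leads in the first WT and second Dnmt3l-KO library, and variant 2 leads for Lamp2 in all 4 libraries.

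The rest of the lysosomal system was read from 5 lists: pump assembly and accessory genes, lysosomal hydrolases, membrane and sorting genes, the TFEB family with nutrient sensing, and cathepsin inhibitors. Of 102 genes, 97 were tested and 0 passed an adjusted p of 0.05 in edgeR, where DESeq2's Wald test also called 0. At an unadjusted p under 0.05 there were 3 higher and 1 lower in Dnmt3l-KO, against 2.34% and 1.81% of all symbols tested. Gaa, the lysosomal acid glucosidase that degrades glycogen, had 124 and 115 CPM in WT and 147 and 157 CPM in Dnmt3l-KO (0.35 ± 0.10 on the log2 scale, unadjusted p = 0.0146). Tfe3, a relative of TFEB, had 33.6 and 33.1 CPM in WT and 41.6 and 42.1 CPM in Dnmt3l-KO (0.33 ± 0.09, unadjusted p = 0.0157). Neither gene's libraries overlapped between the genotypes, where 32.8% of all symbols tested did not overlap, and each had an adjusted p of 0.999 in edgeR. Among the other hydrolases, Psap, the precursor of the saposins, had 701 and 714 CPM in WT and 839 and 805 CPM in Dnmt3l-KO. The arylsulfatase gene Arsb had 32 and 29.6 CPM in WT and 34.6 and 36.6 CPM in Dnmt3l-KO. Idua, an enzyme that degrades glycosaminoglycans, had 12.0 and 12.3 CPM in WT and 14.0 and 14.4 CPM in Dnmt3l-KO. Both Dnmt3l-KO libraries were above both WT libraries in these 3 genes, where 16.2% of all symbols tested had that order. The genes were picked for a small p, which favours such an order, and none passed the test (edgeR, adjusted p = 0.999).

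Of the membrane and sorting genes, the tetraspanin gene Cd63 had 392 and 340 CPM in WT and 471 and 427 CPM in Dnmt3l-KO (0.30 ± 0.12 on the log2 scale, unadjusted p = 0.0607). Mcoln1, the lysosomal calcium channel, had 25.6 and 22.8 CPM in WT and 29.6 and 28.0 CPM in Dnmt3l-KO. Both were higher in both Dnmt3l-KO libraries. Gnptg, a subunit of the enzyme that tags hydrolases for the lysosome, was lower in both, at 11.9 and 11.8 CPM in WT and 10.2 and 9.62 CPM in Dnmt3l-KO. The transporter gene Abca2 was higher in both, at 17.7 and 17.8 CPM in WT and 21.3 and 19.5 CPM in Dnmt3l-KO. All 4 were picked for a small p, and 32.8% of all symbols tested had genotypes that did not overlap. None of the 4 passed the test, with an adjusted p of 0.999 each in edgeR.

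Rraga, a Rag GTPase that recruits the growth regulator mTORC1 to the lysosome, had 41.5 and 39.7 CPM in WT and 54.7 and 48.9 CPM in Dnmt3l-KO (0.35 ± 0.11 on the log2 scale, unadjusted p = 0.0205). Tmem199, a factor for assembly of the pump, had 24.3 and 23.0 CPM in WT and 19.8 and 15.5 CPM in Dnmt3l-KO (-0.42 ± 0.15 on the log2 scale, unadjusted p = 0.0358). These also missed the threshold, with an adjusted p of 0.999 each. Lamtor5 and Lamtor4, parts of the complex that anchors the Rag GTPases, were lower in both Dnmt3l-KO libraries, Lamtor5 with 52.1 and 49.8 CPM in WT and 46.1 and 37.5 CPM in Dnmt3l-KO. Lamtor4 had 30.5 and 32.4 CPM in WT and 27.3 and 27.4 CPM in Dnmt3l-KO. Of the accessory genes, Vma21, which assembles the V0 sector, had 49.4 and 57.5 CPM in WT and 60.7 and 57.9 CPM in Dnmt3l-KO. Dmxl1 and Wdr7 belong to a complex that promotes joining of the V1 and V0 sectors. Dmxl1 had 89.0 and 80.1 CPM in WT and 79.2 and 75.4 CPM in Dnmt3l-KO, and Wdr7 had 56.7 and 52.9 CPM in WT and 61.4 and 57.3 CPM in Dnmt3l-KO. In these 5 genes the genotypes did not overlap, where 32.8% of all symbols tested did not overlap. They too were picked for a small p, and none passed the test (edgeR, adjusted p = 0.999). The median log2 fold change was 0.07 for the 34 hydrolases, with 22 positive and 12 negative, 0.05 for 27 membrane and sorting genes, 0.04 for 21 TFEB and nutrient-sensing genes and -0.06 for the 12 accessory genes, beside 0.01 for all symbols. Of the 8 inhibitors only Cstb, Cst3 and Cst6 were tested. Cstb, the cytosolic inhibitor cystatin B, had 126 and 109 CPM in WT and 117 and 81.1 CPM in Dnmt3l-KO, and the secreted cystatin C gene Cst3 had 191 and 288 CPM in WT and 225 and 240 CPM in Dnmt3l-KO, both overlapping. Cst6, cystatin E/M, had 1.72 and 2.66 CPM in WT and 2.06 and 1.53 CPM in Dnmt3l-KO and overlapped too.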

How the data were processed

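The deposited table lists RefSeq transcripts of 2 WT and 2 Dnmt3l-KO libraries. The submitters' processing notes name TopHat2 2.0.12, Cufflinks 2.2.1, eXpress 1.4.1, DESeq2 1.8.0 and the mouse build mm10, without their roles. The authors deposited estimated counts (whole numbers in the file) and FPKM for each library. Per the file headers, the authors also deposited a mean signal, the log2 fold change and its error, a statistic (score), and raw and adjusted p-values for each transcript.

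Counts and FPKM were summed per symbol here. The main test was edgeR 4.0.16 (R 4.3.3; TMM scaling, filterByExpr, robust quasi-likelihood F-test, Benjamini-Hochberg over all symbols tested); CPM use the TMM library sizes. It was tested on simulated data. Alternatives were DESeq2 1.42.0, limma 3.58.1 on log2(FPKM + 1) and log2(FPKM + 0.1), other scalings, no filter, a replicate block, transcripts, the pair summed, and leaving out each library. Copies were sought in GENCODE transcripts with BLAST 2.17.0 (at least 95% identity over 80% of the copy). Promoter windows came from RefSeq.

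Members and lists were chosen with earlier results of these data known. Values in every library were given for Atp6v0c and its copy, and in each class for the 3 genes with the smallest p and the 2 most abundant; of each other list, for up to 4 genes with the smallest p. Ctsc was added after its values were seen, as were the transcripts of Ctsl, Lamp2, Atp6v1a and Atp6v1h, Col3a1, Lum and Trim24.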

Additional observations from a re-analysis of the deposited data

How the results depend on the processing

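The count of set genes past an adjusted p of 0.05 was 0 under every setting run, as was that of the 5 lysosome lists. The count at an unadjusted p under 0.05, 1 in the main test, ranged from 0 to 6 with a library left out, was 0 with Atp6v0c and its copy summed, and was 3 on transcripts. Without the first Dnmt3l-KO library it was 6 (18.8% of the set, against 12.0% of all symbols), namely Atp6v0c, Atp6v1c1, Atp6v1e1, Atp6v1f, Atp6v1g1 and Atp6v1h. Without the second it was 5 (15.6%, against 13.3%), namely Atp6v0c, Atp6v0d1, Atp6v1b2, Ctsf and Ctsk. Without the first WT library it was 0. The lone library left is assumed to vary like the other genotype's.

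With a library left out, the median log2 fold change ranged from -0.25 (without the first Dnmt3l-KO library) to 0.10 for the pump subunits and from -0.189 to 0.012 (without the second) for the cathepsins. The summed pair ranged from -0.008 (without the first Dnmt3l-KO library) to 0.215. Atp6v0c stayed negative, from -0.47 to -0.32. Direction turned in some setting for Atp6v0b (-0.16 to 0.11), Atp6v1b2 (-0.047 to 0.268), Atp6v1c1 (-0.40 to 0.07), Atp6v1g1 (-0.40 to 0.21), Atp6v1f (-0.256 to 0.064), Ctsk (-0.60 to 0.003), Ctsd (-0.12 to 0.11), Lamp1 (-0.12 to 0.19) and Lamp2 (-0.047 to 0.058). Atp6v0b was 0.015 in limma on FPKM with either pseudocount, and with upper-quartile scaling Ctsd was -0.012 and Lamp2 -0.011. The causes were not tested.

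Replicate numbers are shared by the genotypes, but deviations of same-numbered libraries correlated at only r = 0.1 over 14760 genes. With the replicate number as a block, 0 genes of the set passed, 1 had an unadjusted p under 0.05, the summed pair was 0.11 and the adjusted p of Atp6v0c-ps2 was 0.00815. That gene passed in 7 alternatives in all; 179 of 202 single-gene values kept direction and call, and 16 turned direction. Depth limits the genes under 1 FPKM.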
